A study of Mus musculus with 6 samples.

Results

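Sorted intestinal cells with 2 Neurog3 alleles and an EYFP reporter were compared with sorted cells that carry an EGFP reporter and 1 Neurog3 allele, across all genes of an RNA sequencing count table. The members are the 4 sorted libraries, 2 per group, of the 6 libraries in the series. Of 23845 genes in the table, 13935 (58.4%) had enough counts to be tested. Neurog3 encodes the basic helix-loop-helix factor that commits intestinal crypt cells to the enteroendocrine lineage, and the study asked how the number of its alleles affects those progenitors. The EGFP group has the labelled genotype Neurog3+/-EGFP on the C57BL6 strain. The EYFP group is labelled Neurog3+/+EYFP and is of mixed C57BL6 and CD1 strain. Reporter-positive cells of both were isolated by fluorescence-activated sorting. The other 2 libraries are intestinal epithelial cells of wild-type C57BL6 mice. They are used here to place a level, and they also enter the choice of genes tested, the scaling and the estimate of spread. The sources used here give no age and no number of animals behind a library, so p-values measure the spread between these libraries, which may be partly technical.

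Enteroendocrine cells are rare hormone-secreting cells of the gut lining. Their progenitors leave the cell cycle, switch on Neurog3 for a short time and then the factors downstream of it, and acquire dense-core secretory granules and electrical excitability like those of neurons. They share a secretory precursor with goblet, Paneth and tuft cells, and lateral inhibition through Notch holds neighbouring cells in other fates.

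The libraries held 7938358 and 11714961 counts in EGFP, 12415664 and 10173137 in EYFP, and 13674214 and 20589683 in wild type. Levels below are counts-per-million (CPM) values after TMM scaling, given in the order replicate 1, replicate 2. Replicates of the sorted groups differed by more than 2-fold in 6.34% (EGFP) and 5.7% (EYFP) of tested genes. The groups differed in more than allele number. Strain differed, as above, and so did sex-linked transcripts: Xist, transcribed from the inactive X of females, stood at 966 and 969 CPM in EGFP against 0.634 and 2.36 in EYFP. Ddx3y, on the Y chromosome, had no count in either EGFP library and 37.3 and 39.3 CPM in EYFP. Allele number, reporter, strain and sex-linked expression therefore cannot be told apart. EYFP replicate 1 also stood apart in macrophage transcripts. Lyz2, macrophage lysozyme, was at 207 CPM there, at 0.168 in EYFP replicate 2 and at 0.482 and 29.3 in EGFP.

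The targeted gene differed between the groups, and the part of allele number in that difference was not tested. Neurog3 stood at 120 and 179 CPM in EGFP and at 563 and 348 in EYFP, and the groups did not overlap. It was higher in EYFP by 1.61 ± 0.28 on the log2 scale (fold change ± SE, edgeR adjusted p = 0.0049). Wild-type epithelium had 6 and 6.39 CPM.

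Across all genes, EYFP cells expressed more of the endocrine transcription factors, granule proteins, ion channels and neuron-type cytoskeleton, and less of the goblet and Paneth secretory programme, DNA replication, mitosis and ribosomal protein genes. At an adjusted p under 0.05, 2343 genes (16.8% of those tested) rose in EYFP and 2702 (19.4%) fell. Large differences were more often decreases: 466 genes rose and 586 fell by at least 4-fold, and 35 rose and 138 fell by at least 16-fold. The median log2 fold change over all tested genes was 0.01 and the median absolute change was 0.53. Without EGFP replicate 1, EGFP replicate 2, EYFP replicate 1 or EYFP replicate 2 the higher count was 1138, 1474, 1255 or 1350, and the lower count 1254, 1932, 1482 or 1582. In bulk libraries, fewer cells of a type and less RNA per cell cannot be told apart.

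**Figure D1:**
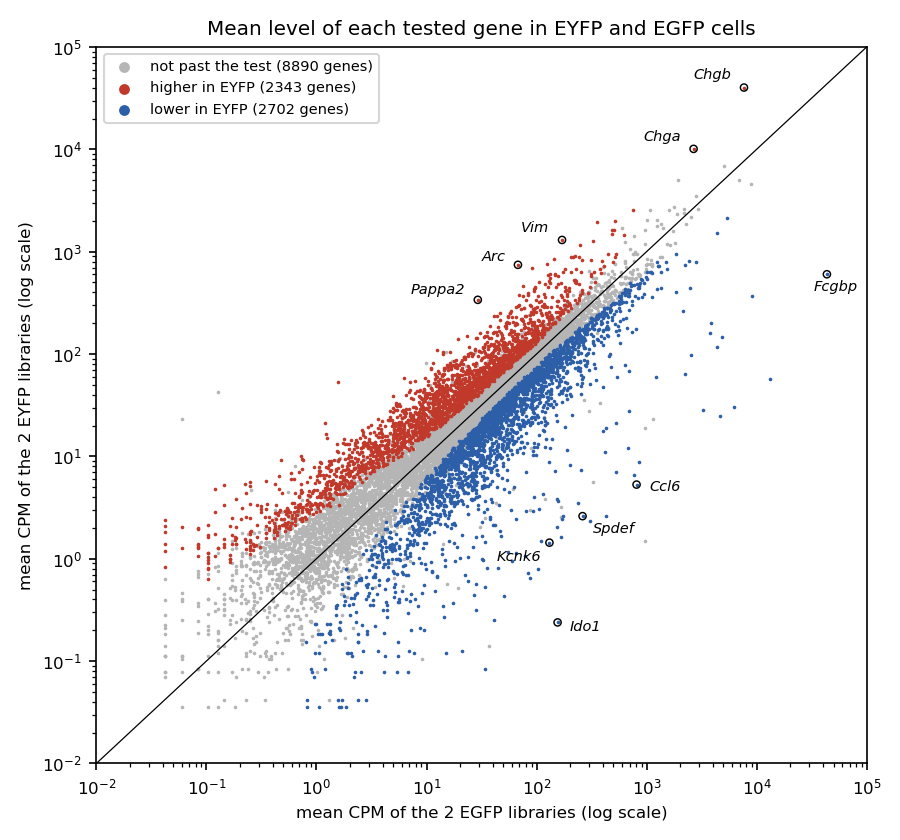
Mean CPM of each tested gene in the 2 EYFP libraries (vertical, log scale) against the 2 EGFP libraries (horizontal, log scale), coloured by the edgeR call. Points under the diagonal reach farther from it than points above it: 138 genes fell and 35 rose by at least 16-fold. 57 genes with a mean of 0 in a group are not drawn.

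**Figure D2:**
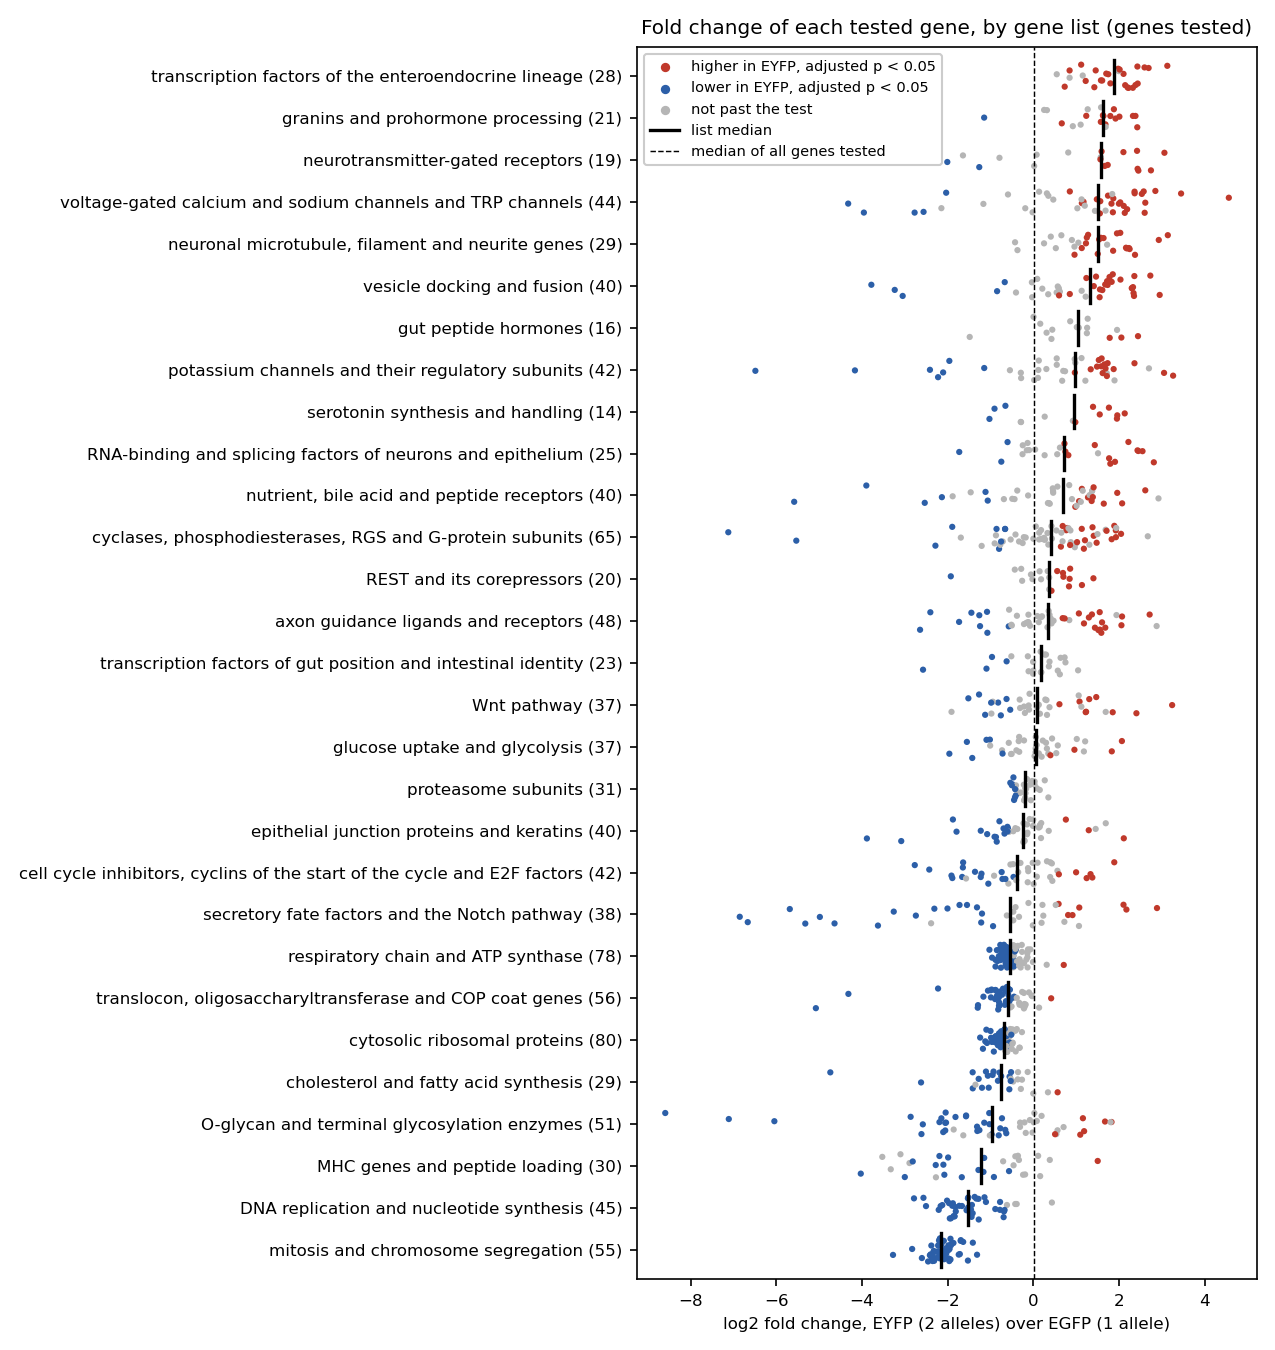
Log2 fold change (EYFP over EGFP, horizontal) of every tested gene in 29 gene lists, ordered by list median (black bars), with the number tested in brackets. Endocrine transcription factors have the highest median, 1.89, and mitosis genes the lowest, -2.15, against 0.01 for all tested genes (dashed line).

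Transcription factors of the enteroendocrine lineage were higher together. Of 28 tested, 24 rose and none fell (85.7% higher, against 16.8% of all genes), with a median of 1.89, and 22 or 23 were higher without any 1 sorted library. Without EGFP replicate 2, 2 members were called lower, and without EYFP replicate 2, 1. Neurod1, which drives endocrine cells out of the cycle, stood at 112 and 149 CPM in EGFP and at 545 and 488 in EYFP (1.98 ± 0.18, adjusted p = 0.00041). Pax4, a factor of the early lineage, stood at 27.4 and 34 against 185 and 137 (2.39 ± 0.20, adjusted p = 0.00028). For both genes each EYFP library was above each EGFP library, and wild type lay far below either group. Neurod2, better known from neurons, rose from 9.41 and 9.81 CPM to 62.7 and 53.8 (2.6 ± 0.19, adjusted p = 0.00023). Mnx1 rose from 11.5 and 10.6 to 97.5 and 44.6, its EYFP replicates lying more than 2-fold apart. The largest rise in the list, Egr4, came at low counts (1.81 and 0.338 CPM against 7.47 and 10.3, 3.13 ± 0.80). Its call was lost without EGFP replicate 2, EYFP replicate 1 or EYFP replicate 2.

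The repressor REST keeps neuronal genes silent in other cells, working through the CoREST proteins and histone deacetylases. Rest itself fell: it stood at 13 and 11.8 CPM in EGFP and at 3.24 and 3.28 in EYFP (-1.93 ± 0.22, adjusted p = 0.00086). Wild type had 18.5 and 17.1 CPM, above both sorted groups. Among 20 genes of REST and its partners, 9 rose (45%, against 16.8% of all genes) and Rest alone fell (5%, against 19.4%). Their median was 0.37. Rcor2, a CoREST protein of neural cells, rose from 14 and 19.4 CPM to 42.9 and 45.8 (1.40 ± 0.25, adjusted p = 0.0042). The count of higher genes was 6 to 7 when any 1 sorted library was left out.

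Of 25 genes for RNA-binding and splicing proteins, 12 rose (48%, against 16.8% of all genes) and 3 fell (12%, against 19.4%). Without EGFP replicate 1 the counts were 8 and 1. Celf3, of the CELF splicing family, rose from 119 and 193 CPM to 593 and 577 (1.91 ± 0.24). Nova2 rose from 2.17 and 2.54 to 14.1 and 13.7 (2.55 ± 0.44), Celf2 from 4.46 and 5.41 to 30.5 and 23.9 (2.45 ± 0.24), and the Hu protein Elavl4 from 1.69 and 0.93 to 9.44 and 8.66 (2.81 ± 0.41). Of 3 muscleblind genes, 2 fell. Mbnl3 fell from 29.3 and 20.5 CPM to 7.47 and 7.49 (-1.73 ± 0.28, adjusted p = 0.0029), and Mbnl1 from 65.7 and 53.5 to 34.7 and 36.3 (-0.75 ± 0.15), a call lost without EGFP replicate 1 or EYFP replicate 1. The groups of Mbnl2 overlapped, at 122 and 106 CPM against 84.5 and 120 (-0.15 ± 0.19, adjusted p = 0.56). Esrp2, an epithelial splicing factor, was at 97.2 and 101 CPM against 70.1 and 60.8 (-0.60 ± 0.14), and only without EYFP replicate 1 among the sorted libraries did its call remain. Srrm4, which directs microexon splicing in neurons, had too few counts to test: 1 count in EGFP and 10 in EYFP.

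Genes of neuronal microtubules and filaments rose without a called decrease, against 19.4% lower among all genes. Of 29 tested, 19 were higher (65.5%, against 16.8% of all genes), with a median of 1.51. Left-out libraries mattered here. The count was 9 without EGFP replicate 1, 15 without EGFP replicate 2, 13 without EYFP replicate 1 and 11 without EYFP replicate 2. Map1b, a microtubule-associated protein of growing axons, stood at 53.3 and 63.7 CPM against 270 and 262 in EYFP (2.18 ± 0.14, adjusted p = 0.00018). Kif1a, the motor that carries dense-core vesicles along axons, stood at 7.96 and 16.8 against 53.8 and 65.5 (2.25 ± 0.34, adjusted p = 0.0031). The groups of both genes were apart by more than their replicates. Vim, the intermediate filament vimentin, rose from 168 and 173 CPM to 1720 and 884 (2.93 ± 0.32), with its EYFP replicates well apart.

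Markers of actual enteric neurons and glia were nearly absent. Their 9-gene list summed to 29.4 and 50.5 CPM in EGFP and to 123 and 130 in EYFP, of which Ret, a receptor tyrosine kinase, made up 26.7 and 47.5, and 118 and 123. Sox10 and Hand2 had no count in any sorted library. Of 3 members tested, only Ret rose (1.69 ± 0.25, adjusted p = 0.0025).

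Granins and the enzymes that process prohormones were among the most raised groups (61.9% higher and 4.76% lower, against 16.8% and 19.4% of all genes). Of 21 genes, all tested, 13 rose and 1 fell, with a median of 1.63, and the higher count was 11 without either EYFP library, 12 without EGFP replicate 1 and 17 without EGFP replicate 2. Together the list took up 10400 and 15400 CPM in EGFP and 64100 and 49800 in EYFP. Chgb, the granule protein chromogranin B, stood at 6280 and 9080 CPM in EGFP and at 47200 and 33100 in EYFP (2.39 ± 0.38, adjusted p = 0.003). Without EGFP replicate 1 this call was lost. Pcsk1, the prohormone convertase that cuts many gut peptides, stood at 179 and 271 against 949 and 866 (2.01 ± 0.24, adjusted p = 0.001). Vgf, a granin family member, rose from 25.7 and 31.6 to 119 and 169 (2.33 ± 0.27). The single decrease was Cpd, a carboxypeptidase of the trans-Golgi, from 252 and 225 CPM to 104 and 112 (-1.15 ± 0.14).

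Several of these promoters hold the letters of a cAMP response element, TGACGTCA, the palindrome read by CREB-type factors. In the 250 bases before the RefSeq start, 4 of 13 granin and processing genes with a single RefSeq promoter held it (30.8%), against 1.61% of all 22862 promoters, 2.86% of tested genes, 2.85% of genes at least 2-fold higher in EYFP and 1.69% of genes at least 2-fold lower. The share among raised genes was thus near that among tested genes. The 4 were Chgb, Pcsk1, Scg2 and Cartpt, looked at after their values were seen. The first 3 are shown from RefSeq (GRCm38.p6, the assembly also called mm10), each read 5′ to 3′ along its gene with the element in capitals. The same 8 letters stand at a similar distance from the start in Chgb and Pcsk1, which passed the test, and in Scg2, whose change was not resolved.
Chgb: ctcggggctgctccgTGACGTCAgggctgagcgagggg
Pcsk1: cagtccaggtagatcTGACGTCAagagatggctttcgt
Scg2: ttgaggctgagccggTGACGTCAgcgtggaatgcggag
The Chgb stretch lies at chr2:132781555-132781592 on the plus strand, the Pcsk1 stretch at chr13:75089764-75089801 on the plus strand and the Scg2 stretch at chr1:79440072-79440109 on the minus strand. The element begins 72, 78 and 68 bases before the start of RefSeq's promoter entry. RefSeq's gene bounds, which span all transcripts, begin at 75089420 for Pcsk1, so its stretch lies upstream of 1 start and inside the gene as bounded. Chgb and Pcsk1 rose, whereas Scg2, another granin, stood at 224 and 456 CPM in EGFP and 143 and 706 in EYFP (0.32 ± 0.81, adjusted p = 0.79). Its EYFP replicates lay on both sides of the EGFP values. Cartpt, a neuropeptide precursor, also missed the test (1.27 ± 0.74, adjusted p = 0.23).

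Peptide hormones did not follow the granule machinery as a group. Of 16 tested, 3 rose, 13 missed the test and none fell (18.8% higher, near the 16.8% of all genes), although 15 had a positive estimate and the median was 1.04. Tac1 rose from 359 and 352 CPM to 2490 and 1380 (2.45 ± 0.29, adjusted p = 0.00097). Gcg rose from 576 and 917 to 1910 and 3240 (1.78 ± 0.33), a call lost without EGFP replicate 1. Ucn3 rose from 13.3 and 31.7 to 82.7 and 106 (2.06 ± 0.39). The spread between EYFP libraries was wide in this list. Gip, the incretin of K cells, was at 4460 and 5700 CPM in EGFP and at 2040 and 11600 in EYFP, so that the EGFP values lay between the EYFP replicates. Cck, of I cells, was at 708 and 1290 against 1020 and 3020 (1.02 ± 0.53, adjusted p = 0.19), and Sct, secretin, at 583 and 1570 against 2010 and 3130 (adjusted p = 0.08). Summed hormone transcripts were 8850 and 12700 CPM in EGFP and 11900 and 27400 in EYFP, with replicate 2 of EYFP 2.3-fold above replicate 1. The count of higher hormones was 2 without EGFP replicate 1, 5 without EGFP replicate 2 and 6 without EYFP replicate 1, and 1 hormone was called lower without EYFP replicate 2.

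In the serotonin pathway 7 of 14 tested genes rose (50%, against 16.8% of all genes) and 3 fell (21.4%, near the 19.4% of all genes). Tph1 rose from 351 and 678 CPM to 2170 and 1850 (1.96 ± 0.31, adjusted p = 0.0031). Ddc rose from 272 and 380 to 1430 and 1100 (1.95 ± 0.24, adjusted p = 0.0011). Gch1, the first enzyme of tetrahydrobiopterin synthesis, the cofactor of tryptophan hydroxylase, stood at 66.2 and 68.9 CPM against 360 and 233 in EYFP (2.13 ± 0.22, adjusted p = 0.00066). Slc18a1, the vesicular monoamine transporter of endocrine cells, rose from 71.2 and 127 to 353 and 323 (1.77 ± 0.32). The 3 decreases were small. Slc6a4, the plasma membrane serotonin transporter, went from 16.9 and 18.7 CPM to 7.40 and 10.2 (-1.02 ± 0.24), and Maoa, monoamine oxidase A, from 100 and 137 to 55.3 and 71.6 (-0.91 ± 0.23). The decreases were less stable than the rises, with 1 call left without EGFP replicate 1, EGFP replicate 2 or EYFP replicate 1 and 2 left without EYFP replicate 2. Slc6a4 was lost without any of the first 3 of these, Maoa without EGFP replicate 2 or EYFP replicate 1, and Spr, sepiapterin reductase, without EGFP replicate 1 or EYFP replicate 2.

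Of 40 tested vesicle docking and fusion genes, 23 rose and 5 fell (57.5% and 12.5%, against 16.8% and 19.4% of all genes). Their median was 1.33. The higher count was 16 without EYFP replicate 2 and 17 without EGFP replicate 1, and the lower count was 3 without EGFP replicate 2 or EYFP replicate 2 and 4 without either of the other sorted libraries. Several genes known from synaptic vesicles rose: Snap25, the plasma membrane SNARE, from 21.7 and 37.1 CPM to 93.0 and 96.5 (1.68 ± 0.24, adjusted p = 0.0019), the synaptic vesicle protein gene Sv2c from 9.77 and 7.69 to 43.6 and 45.8 (2.36 ± 0.20), Syn2, a synapsin, from 19.2 and 37 to 160 and 128 (2.35 ± 0.32), and Rab3c, a small GTPase of synaptic vesicles, from 65.6 and 115 to 840 and 556 (2.95 ± 0.33). The rise of Syt1, a calcium sensor of vesicle fusion that was under 3 CPM in every library, was lost without EGFP replicate 2.

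The largest decreases were in Rab27b, Sytl4 and Sytl2. Rab27b, a GTPase of exocrine and mucous granules, stood at 117 and 129 CPM in EGFP and at 12.8 and 17 in EYFP (-3.05 ± 0.18, adjusted p = 0.00015). Both synaptotagmin-like genes among them fell as well: Sytl4 from 31.8 and 31.6 CPM to 2.33 and 2.27 (-3.78 ± 0.23, adjusted p = 0.00016), and Sytl2 from 159 and 204 to 15.5 and 23.1 (-3.23 ± 0.30, adjusted p = 0.00058). In each of these 3 genes the EYFP values were below every EGFP value. Related genes differed from them. Rab27a fell by 0.67 ± 0.15, a call lost without EGFP replicate 2 or EYFP replicate 2, and Sytl1 by 0.84 ± 0.25, lost without any of the 4 sorted libraries. Sytl5 was at 14.2 and 17.2 CPM against 18.6 and 27.5 (0.55 ± 0.26, adjusted p = 0.14), and Rph3al, a relative of rabphilin, rose from 113 and 125 to 388 and 339 (1.61 ± 0.18, adjusted p = 0.00081). Goblet markers moved with them: the 12-gene goblet list summed to 65700 and 105000 CPM in EGFP and to 715 and 1860 in EYFP, and its part in the Rab27b, Sytl4 and Sytl2 result was not tested.

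**Figure D3:**
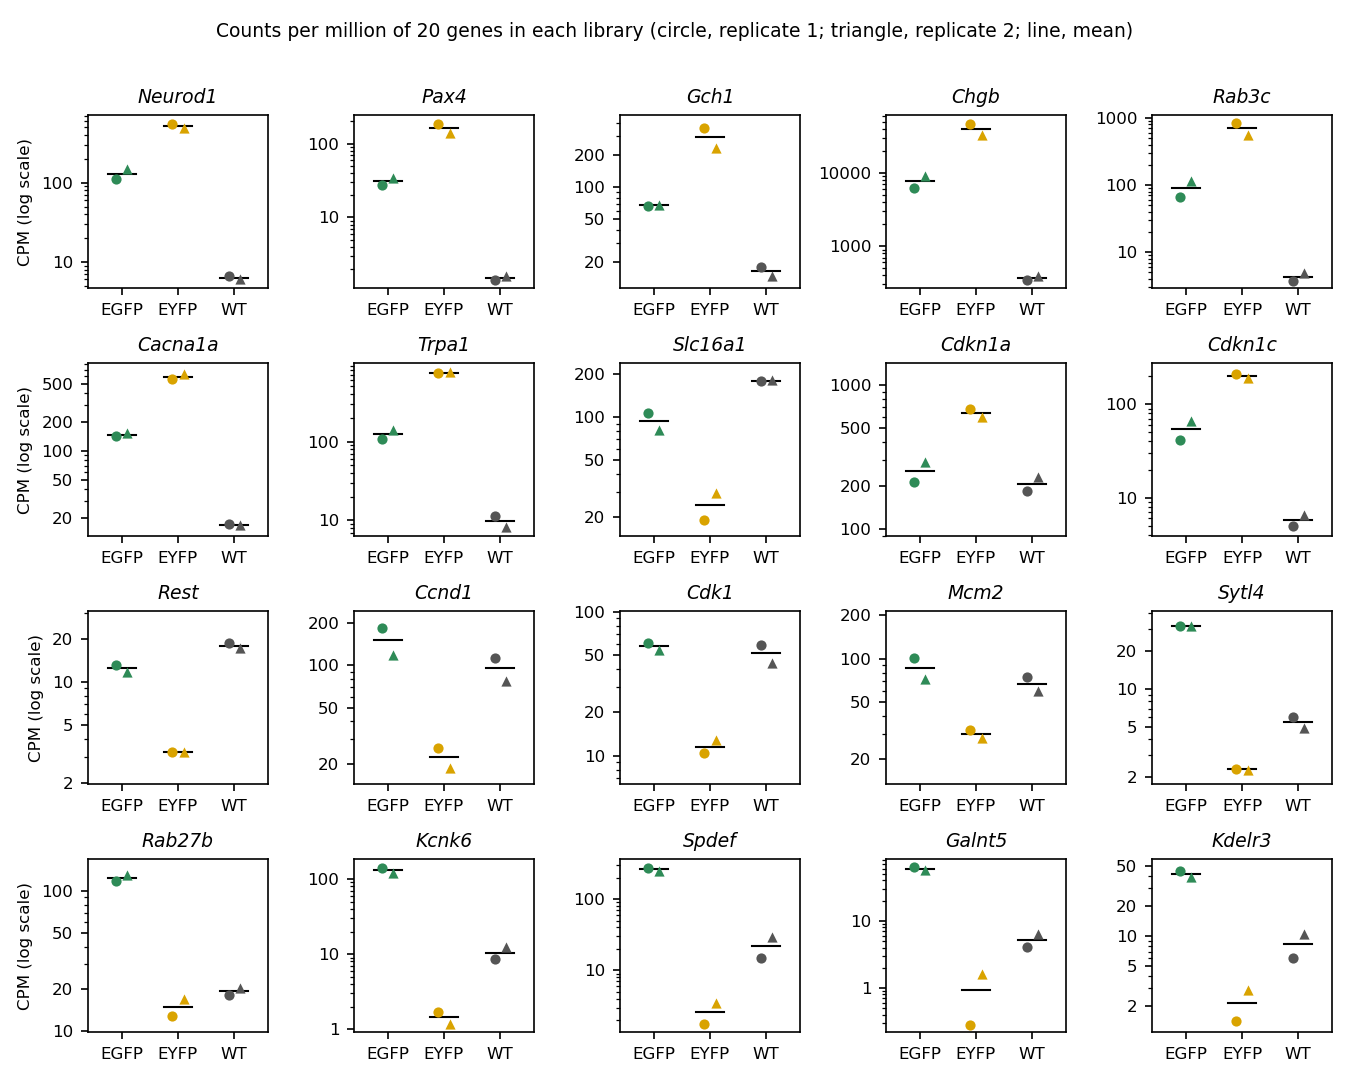
CPM (vertical, log scale, a separate scale for each gene) of 20 genes in each library of EGFP, EYFP and wild type (WT), with circles for replicate 1, triangles for replicate 2 and lines for group means. In every panel both EYFP points lie on the same side of both EGFP points, as for Rest (3.24 and 3.28 against 13 and 11.8 CPM). The genes were picked from those named in the text after their values were seen, so this separation is not a test. Named genes with overlapping groups, such as Gip, Scg2 and Rgs4, are not drawn.

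Calcium, sodium and TRP channel genes rose in 24 of 44 tested (54.5%, against 16.8% of all genes) and fell in 5 (11.4%, against 19.4%). Their median was 1.52. The higher count was 15 without EGFP replicate 1 or EYFP replicate 2, and the lower count was 3 without any sorted library except EGFP replicate 2. Cacna1a, the pore of P/Q-type calcium channels, stood at 143 and 154 CPM against 559 and 629 in EYFP (2 ± 0.15, adjusted p = 0.00023). Scn3a, a voltage-gated sodium channel, stood at 63.9 and 86.1 against 520 and 401 (2.62 ± 0.22, adjusted p = 0.00029). Trpa1, the irritant-sensing channel of enterochromaffin cells, stood at 108 and 140 against 749 and 754 (2.6 ± 0.21, adjusted p = 0.00028). All 3 were far lower in wild type, and their groups were clearly separated. The TRP channel Trpc7 rose by 2.85 ± 0.28, from 11.1 and 17.4 CPM to 117 and 90.2. Among the decreases, the mechanosensitive channel Piezo1 fell from 32.1 and 19.7 CPM to 4.16 and 3.36 (-2.77 ± 0.30). Trpm5, the cation channel of tuft cell taste signalling, was at 73.3 and 43.1 CPM against 0.987 and 4.96 (-4.32 ± 1.16, adjusted p = 0.049), a call lost without any of the 4 sorted libraries. Tuft markers as a whole summed to 249 and 150 CPM in EGFP and 10.8 and 18.8 in EYFP, and their part in the Trpm5 value was not tested.

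Potassium channel genes were less uniform: of 42 tested, 15 rose (35.7%, against 16.8% of all genes) and 7 fell. Their median was 0.97. The ATP-sensitive channel that couples glucose to secretion in beta cells did not pass the test in either subunit. Its pore gene Kcnj11 was at 18.8 and 23.9 CPM against 32.8 and 51 (0.97 ± 0.33, adjusted p = 0.059), and its sulfonylurea receptor gene Abcc8 at 84.1 and 99.8 against 112 and 251 (0.98 ± 0.37, adjusted p = 0.086). The groups did not overlap in either gene. Kcnh1, an ether-a-go-go channel, rose from 2.29 and 1.69 CPM to 8.53 and 11.9 (2.36 ± 0.42). The largest change was a decrease, in the K2P-type channel gene Kcnk6, from 140 and 122 CPM to 1.69 and 1.18 (-6.49 ± 0.28, adjusted p = 6.9e-05). Kcnn4, the calcium-activated channel of secretory epithelium, fell from 80.4 and 67.3 to 13.2 and 14.6 (-2.41 ± 0.19). The lower count, 16.7% of the list against 19.4% of all tested genes, was 7 without any 1 sorted library, and the higher count was 11 to 13.

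Receptors for transmitters, nutrients and peptides had low counts. Only 19 of 55 transmitter-gated receptor genes could be tested, of which 10 rose and 2 fell, and the lower count was 0 without EGFP replicate 1 and 1 without any of the other sorted libraries. With all libraries, 52.6% of those tested rose and 10.5% fell, against 16.8% and 19.4% of all genes. Gabra2, a GABA-A subunit, rose from 2.41 and 3.13 CPM to 13.5 and 17.2 (2.45 ± 0.35). The decrease of Grin1 (5.31 and 4.9 CPM against 1.34 and 1.18), lost without EGFP replicate 1, moved with that of its antisense neighbour Grin1os, and the sources do not say that counting used strand, so reads of the pair cannot be told apart. Among nutrient, bile acid and peptide receptors 11 of 40 rose and 6 fell (27.5% and 15%, against 16.8% and 19.4% of all genes). Gipr, the receptor of the hormone GIP, rose from 4.22 and 6.43 CPM to 34.8 and 31.2 (2.62 ± 0.26, adjusted p = 0.00053), and the vasopressin receptor gene Avpr1b from 7.96 and 11.3 to 37.9 and 37.7 (1.96 ± 0.35). Among nutrient sensors, Ffar2, a receptor for short-chain fatty acids, rose from 56.6 and 77.3 CPM to 182 and 112 (1.13 ± 0.26, adjusted p = 0.014), which did not pass without EGFP replicate 1 or EYFP replicate 1. Ffar1, a receptor for longer fatty acids, was at 5.91 and 11.7 against 12.8 and 20.4 (0.90 ± 0.47, adjusted p = 0.18), Casr, the calcium-sensing receptor, at 3.26 and 9.13 against 3.03 and 14.4 (0.46 ± 0.77, adjusted p = 0.68), and Gpr119, which binds fatty acid amides, rose by 1.07 ± 0.31 with a call lost without EGFP replicate 1, EGFP replicate 2 or EYFP replicate 2. The call of Sstr1, a somatostatin receptor (2.07 ± 0.46), was lost without either EYFP library. The muscarinic receptor gene Chrm1 fell from 27.5 and 28.4 CPM to 0.634 and 0.505 (-5.58 ± 0.29, adjusted p = 8.6e-05). Across this receptor list the higher count was 4 without EGFP replicate 1 or EYFP replicate 2, 7 without EGFP replicate 2 and 8 without EYFP replicate 1. Of the lower calls, 4 were left in the same receptor list without EGFP replicate 1, EYFP replicate 1 or EYFP replicate 2.

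Signalling enzymes of the cAMP pathway and G-protein subunits had a median of 0.42. Of 65, 18 rose and 9 fell (27.7% and 13.8%, against 16.8% and 19.4% of all genes). Without EGFP replicate 1 these counts were 11 and 2, without EGFP replicate 2 they were 14 and 5, and without EYFP replicate 1 they were 13 and 3. Pde1c, a calcium-activated phosphodiesterase, rose from 19.1 and 17.4 CPM to 77 and 73.9 (2.05 ± 0.16). Rgs13, a tuft cell regulator of G-protein signalling, fell from 13.3 and 5.75 to 0.0705 and 0.336 (-5.53 ± 0.84). Rgs4, a regulator abundant in brain, was at 43.3 and 41.2 CPM against 30.4 and 119, so the EYFP replicates spanned the EGFP values. Of 48 axon guidance genes 16 rose (33.3%, against 16.8% of all tested genes) and 9 fell (18.8%, near the 19.4%). Epha7, an ephrin receptor, rose by 2.72 ± 0.28, from 3.26 and 2.96 CPM to 22.9 and 17.9, and Unc5b, a netrin receptor, fell from 11.7 and 19.4 to 2.47 and 2.52 (-2.64 ± 0.43). Of the lower guidance calls, 4, 6, 5 and 6 were left without EGFP replicate 1, EGFP replicate 2, EYFP replicate 1 and EYFP replicate 2.

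Factors that direct the other secretory fates fell steeply. Spdef, which drives goblet and Paneth maturation, stood at 276 and 248 CPM in EGFP and at 1.76 and 3.45 in EYFP (-6.67 ± 0.47, adjusted p = 0.00044). Pou2f3, the tuft cell determinant, stood at 18.3 and 10.4 against 0.282 and 0.252 (-5.68 ± 0.60, adjusted p = 0.00065). Wild-type epithelium lay between the groups in both genes. Hes1, the Notch target that represses Atoh1, fell from 34.3 and 23.5 CPM to 7.47 and 10 (-1.72 ± 0.36, adjusted p = 0.011), which did not pass without EGFP replicate 1 or EYFP replicate 1. Atoh1 itself fell from 150 and 155 CPM to 2.96 and 4.71 (-5.32 ± 0.35, adjusted p = 0.00023). In the whole list of secretory fate and Notch genes 17 of 38 fell (44.7%, against 19.4% of all genes), with a median of -0.54. In the same list 7 rose (18.4%, near the 16.8% of all genes). Numbl, an adaptor that restrains Notch, rose from 2.77 and 2.87 CPM to 13.4 and 12.2 (2.17 ± 0.30). The higher count was 4 without EGFP replicate 1 or EYFP replicate 1.

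Transcripts of enzymes that build mucin sugars were also lower in the EYFP libraries. Of 51 tested O-glycan and terminal glycosylation genes, 28 fell (54.9%, against 19.4% of all genes) and 6 rose (11.8%, against 16.8%). Their median was -0.97. Without any 1 sorted library the lower count was 20 to 26. Gcnt3, the mucin core branching enzyme, stood at 292 and 318 CPM against 49.8 and 52.2 in EYFP (-2.58 ± 0.21, adjusted p = 0.00028). Galnt5, which starts O-linked chains, stood at 63.3 and 56.8 against 0.282 and 1.6 (-6.05 ± 0.57), and Chst4, a sulfotransferase, at 90.9 and 116 against 0.141 and 1.43 (-7.11 ± 0.63). A4gnt, which caps gastric-type mucin chains, had 629 counts in EGFP and 2 in EYFP, a 408-fold ratio with a 95% counting interval of 112 to 3370. These enzymes were separated between groups by far more than their replicates. Fut2, the secretor fucosyltransferase, was not: its EGFP replicates were at 83.8 and 19.8 CPM and its EYFP replicates at 24.5 and 26.4 (-1.02 ± 0.84, adjusted p = 0.4). The rises were smaller, as in Gcnt4, another branching enzyme, at 33.5 and 33.1 against 131 and 81.9 (1.68 ± 0.22). The higher count was 2 without EGFP replicate 1 or EYFP replicate 1 and 3 without either of the other sorted libraries, and A4galt, which makes the P blood group sugar (1.83 ± 0.55), was lost in all 4 cases.

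Genes of protein entry into the endoplasmic reticulum and of its transport coats were lower by a modest amount in most members. Of 56, all tested, 37 fell and 1 rose (66.1% and 1.79%, against 19.4% and 16.8% of all genes), with a median of -0.59. Kdelr3, a retrieval receptor for resident proteins, was an exception in size and fell from 45 and 39.3 CPM to 1.41 and 2.86 (-4.32 ± 0.40, adjusted p = 0.00053). Sec11c, a signal peptidase subunit, fell from 163 and 118 to 29 and 31.1 (-2.22 ± 0.18). The translocon pore gene Sec61a1 was nearer the median (-0.89 ± 0.18), as was Ssr1, of the translocon-associated complex (-0.82 ± 0.16), and both calls were lost without EGFP replicate 1 or EYFP replicate 2. The lower count was 11, 25, 24 and 13 without EGFP replicate 1, EGFP replicate 2, EYFP replicate 1 and EYFP replicate 2. The single rise, of the coat gene Sec24b (0.42 ± 0.13), was lost in each of those 4 cases.

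Of 12 goblet and 12 Paneth markers, 11 in each list fell (91.7%, against 19.4% of all genes). Paneth markers summed to 17100 and 19700 CPM in EGFP and 762 and 448 in EYFP. The part of goblet and Paneth markers in the changes of secretory fate, glycosylation and endoplasmic reticulum genes was not tested.

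**Figure D4:**
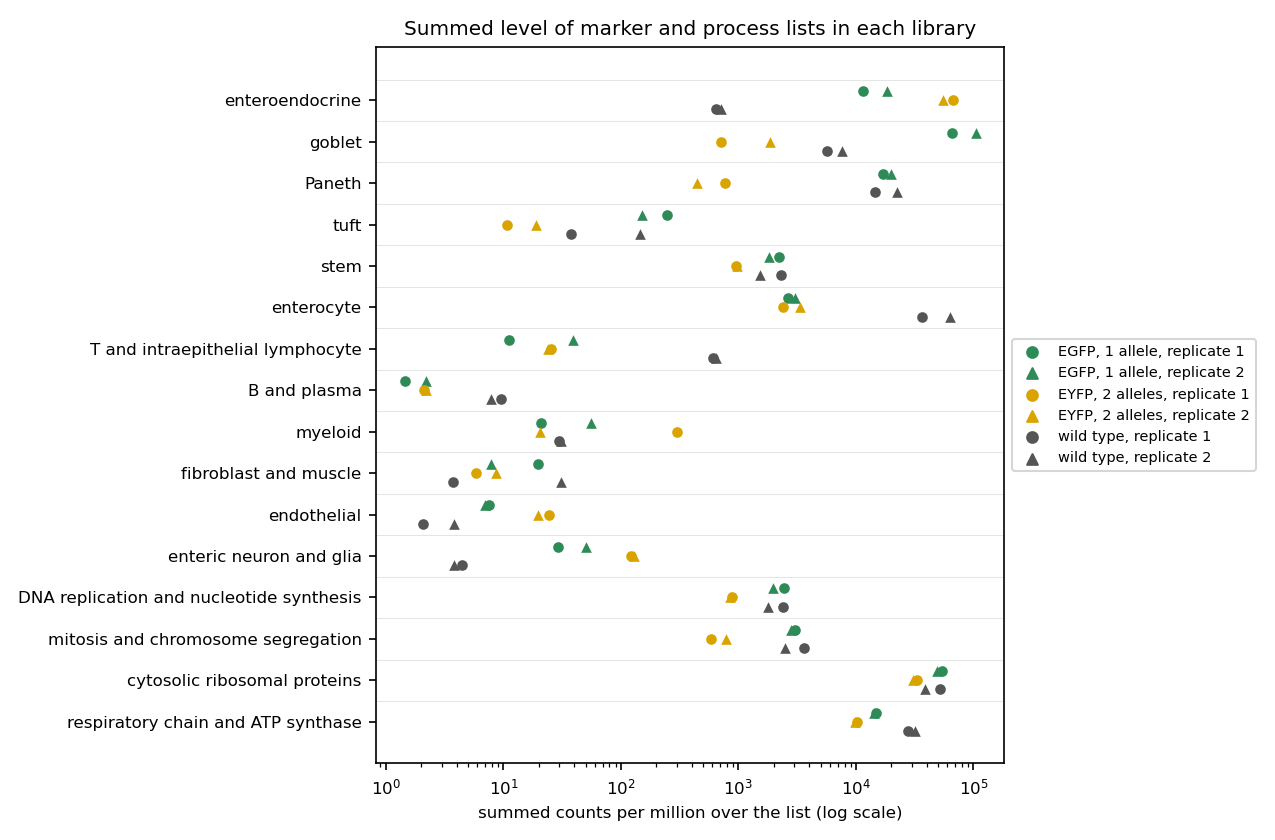
Summed CPM (horizontal, log scale) of 12 cell type marker lists and 4 process lists in each of the 6 libraries. Goblet markers run from 65700 and 105000 CPM in EGFP down to 715 and 1860 in EYFP, and the myeloid list of EYFP replicate 1 lies at 300 CPM, apart from the other 5 libraries.

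Mitosis genes were lower without exception (100%, against 19.4% of all genes). All 55 tested genes of mitosis and chromosome segregation fell, with a median of -2.15, and 49 to 54 stayed past the test without any 1 sorted library. Summed, they stood at 3050 and 2820 CPM in EGFP, 584 and 783 in EYFP, and 3630 and 2500 in wild type. Cdk1, the kinase that starts mitosis, was at 61.1 and 54 CPM against 10.4 and 12.8 (-2.32 ± 0.20, adjusted p = 0.00037), and Aurkb, a kinase of chromosome segregation, at 38.8 and 38.8 against 5.78 and 8.41 (-2.46 ± 0.21, adjusted p = 0.00034). For both genes the EYFP values lay below every EGFP and wild-type value. Melk, Bub1 and Ccnb1 fell by 2.83 ± 0.31, 2.6 ± 0.33 and 2.03 ± 0.23.

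Genes of mitosis are known to be switched by a cell cycle homology region, TTTGAA, near the start, often with CCAAT boxes before it. Both were searched on both strands in the 250 bases before the RefSeq start. TTTGAA was found in 15 of 42 mitosis promoters (35.7%), against 16.7% of all promoters, 10.5% of tested genes, 8.45% of genes at least 2-fold higher and 14.9% of genes at least 2-fold lower. CCAAT was found in 28 of the 42 (66.7%), against 34.7% of all promoters, 37.1% of tested genes, 33% of the higher and 40.2% of the lower genes. DNA replication promoters held CCAAT in 20 of 31 (64.5%) but TTTGAA in only 3 (9.68%). A match is a run of letters, not a measured site. The stretches below show how the matches lie in 4 mitosis genes, picked after their values were seen, with both motifs in capitals on either strand (GRCm38.p6, RefSeq, 5′ to 3′ along the gene, ending at or near the base before the start).
Cdk1: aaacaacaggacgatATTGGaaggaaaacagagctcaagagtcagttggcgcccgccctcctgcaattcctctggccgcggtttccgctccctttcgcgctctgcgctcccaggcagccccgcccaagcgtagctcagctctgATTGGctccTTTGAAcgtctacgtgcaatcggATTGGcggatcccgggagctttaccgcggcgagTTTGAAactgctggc
Kif11: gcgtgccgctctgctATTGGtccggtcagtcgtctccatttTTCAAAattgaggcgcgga
Cdc20: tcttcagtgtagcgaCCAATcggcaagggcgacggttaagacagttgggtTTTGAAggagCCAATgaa
Espl1: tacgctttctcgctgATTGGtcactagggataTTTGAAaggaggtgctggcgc
They lie at chr10:69352913-69353135 (Cdk1, minus strand), chr19:37376322-37376381 (Kif11, plus), chr4:118437344-118437411 (Cdc20, minus) and chr15:102296234-102296286 (Espl1, plus). The TTTGAA match nearest the start begins 15, 19, 18 and 27 bases before that of the promoter entry. For Espl1 the gene bounds begin at 102296254, so its TTTGAA lies inside the gene as bounded. These genes fell by similar amounts, but all 55 tested mitosis genes fell, including those whose promoters lacked TTTGAA. Kif11, the spindle motor, went from 63.3 and 67.4 CPM to 11.3 and 17.2 (-2.20 ± 0.26). Cdc20, the activator of the anaphase-promoting complex, went from 65.5 and 68 to 16.1 and 18.3 (-1.95 ± 0.19). Espl1, separase, went from 30.3 and 34.8 to 5.78 and 6.98 (-2.35 ± 0.27).

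DNA replication genes fell nearly as widely: 41 of 45 were lower and none higher, with a median of -1.52, and 30 to 38 stayed past the test without any 1 sorted library. With all libraries the lower share was 91.1%, against 19.4% of all genes. Mcm2, of the replicative helicase, stood at 101 and 72.5 CPM in EGFP and at 31.8 and 28.3 in EYFP (-1.53 ± 0.20, adjusted p = 0.0014). The licensing genes Orc1 and Cdc6 fell by 2.56 ± 0.37 and 2.50 ± 0.29. Pcna, the sliding clamp, fell less (180 and 146 CPM against 68.9 and 82.8, -1.11 ± 0.22), and its call was lost without EGFP replicate 1 or EYFP replicate 1. Stem cell markers summed to 2220 and 1820 CPM in EGFP and 950 and 974 in EYFP, with 6 of 10 lower, or 2, 4, 2 and 3 without EGFP replicate 1, EGFP replicate 2, EYFP replicate 1 and EYFP replicate 2. With all libraries the lower share of stem cell markers was 60%, against 19.4% of all genes. Their part in the cell cycle result was not tested.

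Among regulators of cell cycle entry and exit, more genes fell than rose. Ccnd1, the cyclin of G1 entry, fell from 185 and 119 CPM to 25.9 and 18.6 (-2.77 ± 0.31, adjusted p = 0.0012), and the E2F-type repressor gene E2f8 from 42.9 and 33.6 to 5.50 and 8.75 (-2.43 ± 0.31). The inhibitor genes Cdkn1a and Cdkn1c rose. Cdkn1a, encoding p21, stood at 212 and 294 CPM against 681 and 596 (1.34 ± 0.21, adjusted p = 0.0029), and Cdkn1c, encoding p57, at 41.9 and 66.5 against 211 and 192 (1.89 ± 0.23, adjusted p = 0.0012). In wild type Cdkn1a was at 185 and 229 CPM, near EGFP, and Cdkn1c at 5 and 6.45, below both sorted groups. Cdkn1b, encoding p27, was at 54.9 and 54.7 against 127 and 92.2 (1 ± 0.22), a call lost without either EGFP library or without EYFP replicate 1. Gadd45a, a growth arrest gene, rose by 1.38 ± 0.14, and the antiproliferative gene Btg2 by 1.25 ± 0.22, the latter lost without EGFP replicate 1. In the whole list 6 of 42 rose (14.3%, near the 16.8% of all genes) and 15 fell (35.7%, against 19.4%). Those counts were 3 and 8 without EGFP replicate 1, 4 and 12 without EGFP replicate 2, and 5 and 8 without either EYFP library.

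Ribosomal protein genes were lower by a small amount. Of 80, all tested, 58 fell (72.5%, against 19.4% of all genes) and none rose (against 16.8%), with a median of -0.68. With DESeq2 size factors 48 fell. Summed, they stood at 54300 and 49300 CPM in EGFP, 33000 and 30900 in EYFP and 51900 and 39000 in wild type, so the sums of the sorted groups did not overlap. Rpl39, of the large subunit, fell from 434 and 363 CPM to 167 and 171 (-1.24 ± 0.19, adjusted p = 0.0024). Rpl3 was closer to the median (-0.79 ± 0.23) and lost its call without any of the 4 sorted libraries. With changes of this size the count rests on every library: it was 4, 16, 8 and 6 without EGFP replicate 1, EGFP replicate 2, EYFP replicate 1 and EYFP replicate 2.

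Respiratory chain and ATP synthase genes showed the same shape, with 62.8% lower and 1.28% higher, against 19.4% and 16.8% of all genes. Of 78, 49 fell and 1 rose, with a median of -0.55, and the lower count was 8, 18, 13 and 11 without the same libraries in that order. Their sum was 14900 and 14300 CPM in EGFP and 10300 and 9900 in EYFP, against 28000 and 32000 in wild type. Atp5k, an ATP synthase subunit, fell from 111 and 96.0 CPM to 54.5 and 47.4 (-1.02 ± 0.15, adjusted p = 0.0019). The single rise, of Cox7a2l (0.71 ± 0.18), which helps assemble respiratory supercomplexes, was lost without either EGFP library or without EYFP replicate 1. Proteasome genes fell in 8 of 31 (25.8%, near the 19.4% of all tested genes), with a median of -0.19. With DESeq2 size factors 2 fell and 1 rose, and the lower count was smaller without any 1 sorted library.

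Cholesterol and fatty acid synthesis genes fell in 18 of 29 (62.1%, against 19.4% of all genes), with 1 rise (3.45%, against 16.8%). Their median was -0.75. Acly, which supplies acetyl-CoA, rose by 0.57 ± 0.19, a call lost without either EGFP library or without EYFP replicate 1. The lower count was 8, 15, 11 and 10 without EGFP replicate 1, EGFP replicate 2, EYFP replicate 1 and EYFP replicate 2.

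Glucose uptake and glycolysis genes were called in few cases, with a median of 0.06. Of 37, 4 were higher and 6 lower (10.8% and 16.2%, against 16.8% and 19.4% of all genes). Slc16a1, a lactate transporter, fell from 107 and 81.3 CPM to 19.1 and 29.3 (-1.96 ± 0.23, adjusted p = 0.00099). The lower count was 4 without EGFP replicate 1 or EYFP replicate 1.

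Wnt pathway genes rose in 9 and fell in 8 of 37 (24.3% and 21.6%), near the 16.8% and 19.4% of all tested genes. Axin2, the usual reporter of Wnt signalling, stood at 97.7 and 92.8 CPM in EGFP and 92.9 and 86.4 in EYFP (-0.09 ± 0.13, adjusted p = 0.63), with overlapping groups. The receptor gene Fzd1 rose from 8.08 and 7.78 CPM to 53.1 and 31 (2.41 ± 0.29), and Porcn, which lipidates Wnt ligands, fell by 1.52 ± 0.46, a call lost without either EGFP library or without EYFP replicate 1. The higher count was 5 without EGFP replicate 1, EGFP replicate 2 or EYFP replicate 1, and the lower count 2, 3, 4 and 3 over the 4 left-out libraries in the order above. Of 23 factors of gut position, 4 fell (17.4%, near the 19.4% of all tested genes) and none rose. Pdx1, of the duodenum, was at 6.75 and 11.1 CPM against 13.7 and 14 (0.62 ± 0.36, adjusted p = 0.21), whereas Isx, an intestinal homeobox factor controlled by vitamin A, fell from 120 and 130 to 16.2 and 25.8 (-2.57 ± 0.24, adjusted p = 0.00045).

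Epithelial junction and keratin genes fell in 15 of 40 (37.5%, against 19.4% of all genes) and rose in 3 (7.5%, against 16.8%). Their median was -0.23. Cdh1, E-cadherin, was at 983 and 977 CPM against 742 and 725 (-0.42 ± 0.18, adjusted p = 0.1). Krt23 fell from 12.7 and 25.4 CPM to 0.846 and 1.77 (-3.88 ± 0.47), and the claudin gene Cldn6 rose from 1.93 and 3.80 to 13.5 and 11.9 (2.11 ± 0.44), a call lost without EGFP replicate 1 or EYFP replicate 1. The lower count was 6 to 8 without any 1 sorted library, and the higher count was 0 without EGFP replicate 1, 1 without EYFP replicate 1 and 2 without EYFP replicate 2. Among MHC and peptide-loading genes 14 of 30 fell (46.7%, against 19.4% of all genes) and 1 rose (3.33%, against 16.8%). Their median was -1.22. B2m, the light chain of class I molecules, fell from 401 and 454 CPM to 166 and 186 (-1.28 ± 0.18, adjusted p = 0.0018), against 1230 and 1360 in wild type. H2-DMb2 was at 10.4 and 8.46 CPM in EGFP, 0.775 and 0.336 in EYFP and listed at 0 in both wild-type libraries, and H2-T10 rose by 1.5 ± 0.24. H2 genes differ between strains and have near-identical copies, and how reads were divided among copies was not tested.

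Outside the lists, the genes that rose most included Pappa2, a protease that frees insulin-like growth factor, from 28.2 and 30.3 CPM to 424 and 253 (3.53 ± 0.26, adjusted p = 0.00024), and Arc, a neuronal activity-induced gene, from 68.4 and 67.1 to 729 and 759 (3.46 ± 0.17, adjusted p = 8.6e-05). Both were far lower in wild type, Arc at 10.2 and 8.2 CPM. Pak3, a kinase of neuronal actin, rose by 3.13 ± 0.22 and the transcription factor gene Dach2 by 3.10 ± 0.32. Coch, Ces3a and Rrad rose by 3.57 ± 0.35, 3.20 ± 0.32 and 3.06 ± 0.41. Eno1b rose from 2.41 and 0.761 CPM to 55 and 52.5, but it is a near copy of Eno1, which was at 296 and 294 against 199 and 198 (-0.57 ± 0.21, adjusted p = 0.065), and reads may be divided between them. C87414 also rose (3.61 ± 0.93), a call lost without either EYFP or either wild-type library.

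Among the genes outside the lists that fell most, Ccl6, a chemokine, went from 642 and 980 CPM to 3.95 and 6.65 (-7.27 ± 0.44, adjusted p = 0.00023). Ano7, of the anoctamin family, went from 448 and 612 to 3.10 and 10.9 (-6.27 ± 0.68), and Capn9, a calpain of the gut, from 139 and 199 to 1.41 and 3.53 (-6.12 ± 0.46). Ceacam2, a cell adhesion gene, stood at 184 and 123 CPM in EGFP, 1.34 and 2.78 in EYFP and 0.416 and 0.663 in wild type, so here EGFP alone was high. Id4, an inhibitor of basic helix-loop-helix factors, had 293 counts in EGFP and 3 in EYFP, a 127-fold ratio (95% counting interval 42.9 to 617).

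The wild-type libraries place these changes. Of the 1488 genes at least 2-fold higher in EYFP, 1212 (81.5%) had a wild-type mean below both sorted groups, 189 lay between them and 87 lay above both. Of the 1473 at least 2-fold lower, 635 (43.1%) had a wild-type mean between the groups, 734 (49.8%) above both and 104 (7.06%) below both. The raised genes took up 4.06% and 5.1% of counts in EGFP, 17.4% and 14.9% in EYFP and 2.7% and 2.97% in wild type. The lowered genes took up 21.9% and 26% in EGFP, 4.24% and 4.52% in EYFP and 19.4% and 21.9% in wild type.

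By chromosome, 107 of 441 tested X-linked genes rose (24.3%) and 75 fell (17%), with a median of 0.17, against 16.5% and 19.5% of 13374 autosomal genes and a median near 0. The X chromosome was the one on which the share of rises was highest among the 20 chromosomes other than Y. Eif2s3x, which escapes X inactivation, was at 269 and 227 CPM in EGFP and 134 and 130 in EYFP (-0.90 ± 0.18, adjusted p = 0.0067), which did not pass without EGFP replicate 1. The sex-linked values given above move with this comparison, and their part was not tested. None of the 4 tested Y-linked genes passed edgeR's test at this threshold. The spread estimate includes the wild-type libraries, which differed in Ddx3y (62.4 and 0.121 CPM).

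Markers of non-epithelial cells were low. T cell markers summed to 11.2 and 39.1 CPM in EGFP and 25.6 and 24.2 in EYFP, with none of 12 called, against 607 and 649 in wild type. The myeloid list summed to 20.8 and 55.2 CPM in EGFP and to 300 and 20.6 in EYFP, and 1 of 7 tested genes rose and 1 fell, or 2 and 1 without EYFP replicate 2. The riser, C1qa, a complement gene of macrophages, was at 4.10 and 6.76 CPM against 32.9 and 15.1 (2.13 ± 0.44, adjusted p = 0.01), which did not pass without EGFP replicate 1 or EYFP replicate 1. Itgam, an integrin of myeloid cells, fell from 12.8 and 10.9 to 2.26 and 2.27. Endothelial markers were near 0 apart from Pecam1, which rose from 3.62 and 4.23 CPM to 18.7 and 14.6 (2.07 ± 0.31), and Vwf, and none of 5 tested fibroblast and muscle markers passed. Enterocyte markers summed to 2630 and 3060 CPM in EGFP and 2410 and 3360 in EYFP, against 36300 and 63100 in wild type. Of 14, 1 was lower (7.14%, against 19.4% of all genes).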

How the data were processed

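TruSeq libraries of total RNA were read as 50-base single ends on a HiSeq2000, per the labels' protocols. The tools named in the submitters' processing notes are Bowtie2, RSEM 1.3.1, DESeq2 1.26.0 and FastQC 0.11.8, with build mm10. The sources used here state neither their settings nor any use of strand. The authors deposited RSEM estimated counts per gene, which were rounded to whole numbers here. The authors' deposited table of comparisons holds fold ratios and p-values, with 6 columns of per-sample values that were not used.

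Genes passing edgeR's filterByExpr (13935 of 23845) were scaled by TMM and tested with edgeR 4.0.16 (R 4.3.3), the quasi-likelihood test with robust dispersion, over 6 libraries with 3 group means (3 residual degrees of freedom, biological coefficient of variation 19.8%). P-values were adjusted by Benjamini-Hochberg over all tested genes and called under 0.05. SE is the absolute log2 fold change over the root of F. Wild type had its own group mean, and it also entered the filter, the TMM scaling and the dispersion estimate. Tests were run on simulated data first. Counting intervals are exact at 95% and cover counting error only. In the authors' deposited table, 2348 genes had a ratio over 1 and 2734 under 1 at an adjusted p under 0.05, and 99.5% of 13911 shared genes had the same direction as here.

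Members and lists were chosen with earlier results of these data known. Named genes are Neurog3; for the main lists the first 3 symbols and up to 3 members per direction with the largest change past the test (5 CPM in both libraries of the higher group); for the other lists 1 of each; and outside the lists the 10 higher and 10 lower with the largest change (10 CPM, no provisional symbols). Not all of these are described. The others named were chosen after their values were seen (Scg2, Cartpt, Kif11, Cdc20, Espl1, Lyz2, C1qa, Itgam, Ret, Pecam1, Vwf, Sox10, Hand2, Btg2, Hes1, Cdkn1b, Gip, Eno1, Grin1, Mbnl2, Rab27a, Sytl1, Sytl5, Rph3al, Ffar2 and Ddx3y). List symbols matched in 1461 of 1464 cases. Alternatives were DESeq2 size factors, DESeq2 1.42.0, no filter, a minimum of 10 counts, only the 4 sorted libraries, a replicate block, a required 2-fold change, and the omission of each library in turn.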

Additional observations from a re-analysis of the deposited data

How the results depend on the processing

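The number of genes higher and lower in EYFP was 2343 and 2702. It was 2696 and 2423 with DESeq2 size factors, which moved the median log2 fold change by 0.07, 2646 and 2498 with DESeq2's Wald test, 2381 and 2701 with no filter, 2426 and 2742 with a minimum of 10 counts and 2717 and 2948 with only the 4 sorted libraries. Requiring a fold of at least 2 left 1488 and 1473. Leaving out 1 library gave 1138 to 2525 higher and 1254 to 2958 lower. The labels number the replicates 1 and 2 in each group, but nothing says that equal numbers share an animal or day, and deviations of same-numbered EGFP and EYFP libraries correlated at 0.02; a fit with the replicate number as a block called 2512 and 2932, with 3 named genes losing and 4 gaining a call. With size factors the lower counts of ribosomal protein and respiratory chain genes were 48 and 41, and those of the proteasome 2 with 1 higher. Of 187 named genes tested, 160 were called and 35 of those lost the call without at least 1 library; no called estimate among them changed sign under any alternative run. With 2 libraries a group, changes near the replicate spread (a median of 0.21 and 0.20 on the log2 scale) are not resolved.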
